A study of Mus musculus with 4 samples.

Results

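The cells described here were human T cells of the huNSG-SGM3 mouse that carried transcripts of a small set of genes, PDCD1, CD200, GNG4 and FZD3. They were chosen by their measured transcripts. Among barcodes with more than 50% of their unique molecular identifiers (UMIs, 1 per captured transcript) on human genes and at least 500 human genes, a gate kept those with a CD3D, CD3E or CD3G UMI and none of CD8A, CD8B, FOXP3 or MS4A1. A gate cell was a member when at least 2 of the 4 genes had a UMI. The rule found 382 members among 8575 gate cells and 22830 barcodes in 4 libraries. Of these, 128 came from naïve blood, 153 from sham blood, 97 from SCI blood and 4 from SCI spinal cord.

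All hosts were NSG-SGM3 mice, an immunodeficient strain with the Prkdc scid and Il2rg null alleles and transgenes for human IL3, CSF2 and KITLG under the CMV promoter, engrafted with human CD34+ stem cells from cord blood. The age label of 15 weeks is, by the study's timeline, the time from engraftment to surgery. Mice of all groups, naïve ones included, were collected 7 days after that time. Naïve mice had no surgery, sham mice had a laminectomy at the ninth thoracic level, and SCI mice had a contusion injury at that level. Human CD45+ cells were sorted and pooled from different animals, so that each library stands for 1 pool, with no replicate library. Naïve and sham hosts were male and SCI hosts of both sexes, so host sex and injury cannot be told apart.

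PDCD1 encodes PD-1, an inhibitory receptor that is induced when a T cell meets antigen and stays high in follicular helper T cells and in chronically stimulated T cells. CD200 encodes a surface glycoprotein whose receptor sits mainly on myeloid cells and restrains them. FZD3 encodes a frizzled receptor for Wnt ligands, and GNG4 a gamma subunit of heterotrimeric G proteins. Follicular helper T cells give help to B cells through CD40 ligand, IL-21 and, in human cells, the B cell chemokine CXCL13. They are usually recognised by PD-1 together with the homing receptor CXCR5 and the transcription factor BCL6.

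The blood members held 751687, 1102349 and 843741 UMIs in the naïve, sham and SCI libraries, at medians of 4282, 6094 and 5696 UMIs per cell. Gate cells with none of the 4 genes were shallower, at medians of 3469, 4991 and 4625.5 UMIs. The members had a median of 13 to 16 CD3 UMIs and 7.74% to 8.53% mitochondrial UMIs. In total, 38 barcodes occurred in more than one library, none of them a member. Scrublet marked 2, 3 and 4 of the members in naïve, sham and SCI blood as doublets.

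The name helper T cell was checked against CD4, which the rule did not use. A CD4 UMI was found in 39.1% of naïve members (95% interval 30.6 to 48.1), 61.4% of sham members (53.2 to 69.2) and 52.6% of SCI members (42.2 to 62.8). In gate cells with none of the 4 genes, the shares were 31.3%, 44.1% and 39.3%. When each cell was thinned to 2000 UMIs, the shares in the same members were 13.4% (8.0 to 20.6), 27.5% (20.6 to 35.2) and 19.6% (12.2 to 28.9), against 18.4%, 21.1% and 19.0% in the cells without the 4 genes, whose intervals overlapped those of the members in each library. CD4 was not part of the rule, and many members were placed among helper T cells by the absence of CD8 transcripts. All intervals given here cover counting error only and not the spread between animals. Those of levels and ratios treat UMIs as independent and so leave out the spread between cells too.

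Markers of other cell types ranged from absent to frequent in the members. Basophil and mast cell markers summed to 0, 3 and 1 UMIs in naïve, sham and SCI members. No erythroid or platelet marker had a UMI. Of the B cell markers, BANK1 and PAX5 were at 0 in every blood library, but the list summed to 54, 98 and 50 UMIs in 41, 61 and 34 members. The regulatory T cell list without FOXP3 summed to 228, 365 and 224 UMIs in 87, 123 and 79 members, at 404, 443 and 368 CPM against 673, 641 and 478 CPM in gate cells with none of the 4 genes. Monocyte markers summed to 5 UMIs in naïve and 3 in SCI members but to 949 in sham members, where 2 of 6 positive cells held more than 1 such UMI. Plasma cell markers summed to 289 UMIs spread over 111 of the 128 naïve members, against 42 and 41 UMIs in sham and SCI members. IGHM, the mu heavy chain, gave 163 of these in 87 naïve members, with at most 7 in 1 cell. Among naïve gate cells without the 4 genes, the plasma cell list summed to 141378 UMIs, and the part of free RNA in the naïve members was not tested.

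Most members passed the rule with the lowest possible number of genes. In naïve blood, 98 members had 2 of the 4 genes, 23 had 3 and 7 had all 4. In sham blood these numbers were 106, 43 and 4, and in SCI blood 76, 17 and 4. Just outside the rule stood 445, 397 and 376 gate cells with 1 of the genes. The pairs PDCD1 with GNG4 (88 cells) and PDCD1 with FZD3 (81 cells) were the most frequent of the combinations over the blood libraries. PDCD1 was found in 94, 121 and 67 members of naïve, sham and SCI blood, CD200 in 43, 56 and 34, GNG4 in 86, 63 and 62, and FZD3 in 70, 117 and 56. Sham members thus held FZD3 more often than GNG4. The intervals of GNG4 and FZD3 overlapped in naïve members, at 58.3% to 75.2% and 45.7% to 63.5%. They also overlapped in SCI members, at 53.5% to 73.4% and 47.3% to 67.7%.

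The levels of the 4 genes in members, which the rule fixed to be above the rest, differed between libraries. Levels are given as counts per 1000000 human UMIs without ribosomal and mitochondrial genes (CPM), summed over the cells of a library. PDCD1 stood at 278, 231 and 148 CPM in naïve, sham and SCI members. FZD3 stood at 253, 305 and 171 CPM, GNG4 at 267, 132 and 156 CPM, and CD200 at 119, 92.3 and 85.5 CPM. SCI members were the lowest of the 3 for PDCD1, CD200 and FZD3, and sham members for GNG4. Each member was picked for UMIs of these genes, and depth differed, at medians of 4282, 6094 and 5696 UMIs. The part of depth in these levels was not tested, so they are no measure of a change after injury.

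Detection of one of the genes went with detection of others, more clearly for some pairs. The rule used these genes, so their joint detection is a description and no separate support for the members as a group. To lessen the part of depth, human barcodes were thinned to 2000 UMIs and the gate was applied again. It then held 3291 naïve, 2921 sham and 3295 SCI cells, which were not all the same cells as before. In thinned naïve gate cells, 17.5% of cells with a GNG4 UMI also had FZD3 (9.91 to 27.6), against 2.96% of cells without GNG4. The shares were 16.0% against 3.66% in sham and 11.1% against 1.88% in SCI blood. For CD200 and FZD3, 18.9%, 32.4% and 21.9% of CD200-positive cells had FZD3, against 3.06%, 3.50% and 1.81% of CD200-negative cells in naïve, sham and SCI blood. PDCD1 and CD200, the pair in the members' name, were found together less clearly. CD200 was found in 1.93% of thinned PDCD1-positive naïve cells (0.529 to 4.87), against 1.59% of the others. The shares were 5.56% against 1.04% in sham and 1.61% (0.196 to 5.70) against 0.946% in SCI blood. Few cells held both genes of a pair. In naïve, sham and SCI blood there were 14, 8 and 5 for GNG4 with FZD3 and 10, 12 and 7 for CD200 with FZD3. For PDCD1 with CD200 there were 4, 8 and 2.

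The first question was whether these cells were more or less common in blood after injury. Members made up 4.04% of gate cells in naïve blood (3.38 to 4.78), 6.12% in sham blood (5.21 to 7.13) and 3.39% in SCI blood (2.76 to 4.12). They were 1.94%, 3.12% and 1.56% of all human cells with at least 500 genes. Because sham members also had the highest median depth, the rule was applied again to cells thinned to 2000 UMIs. This left out 442 naïve, 158 sham and 169 SCI human barcodes with fewer UMIs. It also let some cells into the gate whose CD8, FOXP3 or MS4A1 UMIs were not drawn. The thinned shares were 1.46% in naïve blood (48 of 3291 cells), 1.54% in sham blood (45 of 2921) and 0.789% in SCI blood (26 of 3295). The excess in sham over naïve blood was thus present at full depth only, whereas SCI blood had the lowest share both ways, with a thinned interval of 0.516 to 1.15 that ran into that of naïve blood (1.08 to 1.93).

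**Figure D1:**
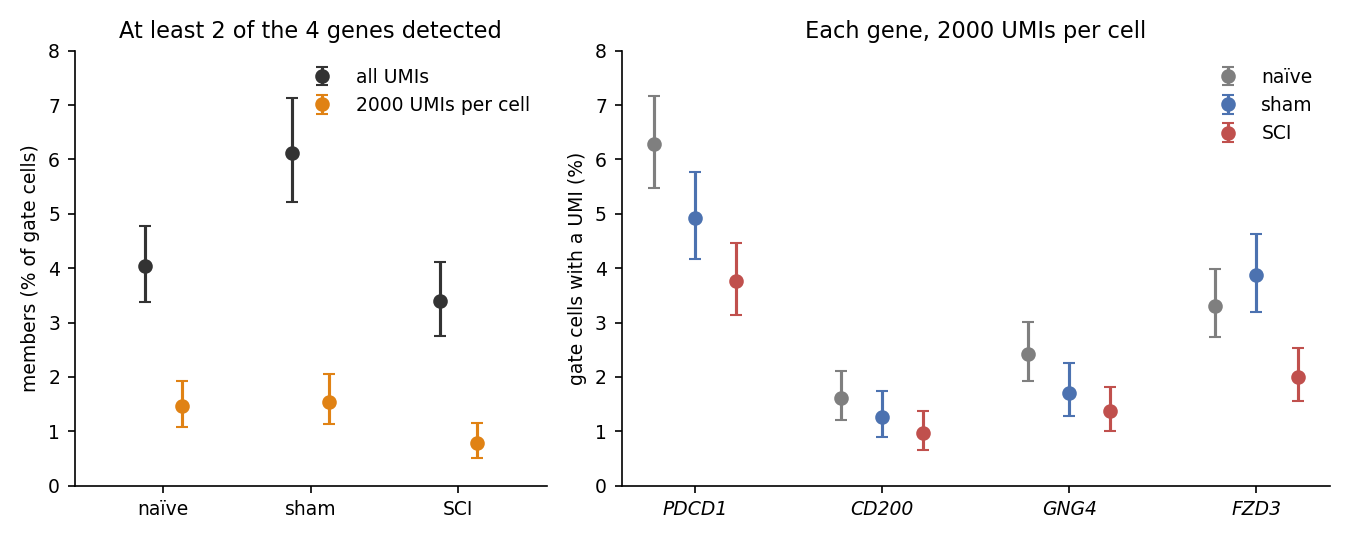
Left, members as a percent of gate cells in each blood library with all UMIs (black) and with 2000 UMIs per cell (orange); right, percent of thinned gate cells with a UMI of each gene. Bars are 95% intervals of counting error, and the SCI points are the lowest in each series, from 3.39% with all UMIs to 0.789% when thinned.

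The shares of the single genes, which the rule used and which are therefore no separate support, are given for thinned gate cells. PDCD1 was detected in 6.29% of naïve (5.48 to 7.17), 4.93% of sham (4.17 to 5.78) and 3.76% of SCI gate cells (3.14 to 4.47). FZD3 was detected in 3.31%, 3.87% and 2.00%, and the SCI interval (1.55 to 2.54) lay below both others. GNG4 was detected in 2.43%, 1.71% and 1.37%, and CD200 in 1.61%, 1.27% and 0.971%, with overlapping intervals between sham and SCI blood, and for CD200 also between naïve and SCI blood. As background, thinned B cells with an MS4A1 UMI, which should lack most of these genes, had a PDCD1 UMI in 0.329%, 0 and 0.421% of cells and a GNG4 UMI in none. CD200, which B cells can carry, was found in 2.14%, 2.03% and 2.53% of them, above its share in gate cells. At full depth, 2 or more of the 4 genes were found in 1.27%, 1.08% and 0.407% of FOXP3-positive T cells and in 2.06%, 1.00% and 0.820% of CD8-positive T cells of naïve, sham and SCI blood. Both shares were below those of gate cells in every blood library. Those of FOXP3-positive cells rested on 5, 5 and 1 cells, and the SCI interval (0.0103 to 2.24) took in the naïve and sham shares. For CD8-positive cells, the SCI interval (0.449 to 1.37) overlapped those of naïve (1.24 to 3.20) and sham blood (0.459 to 1.89).

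Members were next set beside gate cells with none of the 4 genes within each blood library, as a description, since the members were selected on the same cells' values. Among 7686 genes with at least 100 UMIs over both kinds of cells in every library, 175 (2.28%) were at least 1.5-fold higher and 129 (1.68%) at least 1.5-fold lower in members in all 3 libraries. The genes at the top were those of dividing cells. UBE2C, a ubiquitin-conjugating enzyme of mitotic exit, stood at 205, 80.1 and 187 CPM in naïve, sham and SCI members and at 18.1, 11.1 and 20.6 CPM in the cells without the 4 genes. TOP2A, a topoisomerase of replicating DNA, stood at 354, 175 and 368 CPM against 49.9, 33.1 and 54.4 CPM. Others of the 15 highest were the cyclins CCNA2, CCNB1 and CCNB2, the kinase AURKB, the spindle genes ASPM, TPX2 and CENPE, and the histone chaperone ASF1B. Of 16 tested genes of the cell cycle list, 15 were at least 1.5-fold higher in members in all 3 libraries, at list medians of 2.35, 1.53 and 2.68 on the log2 scale, when the medians over all tested genes were 0.03, 0.02 and 0.01.

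The signal of division came from a minority of the members. An MKI67 or TOP2A UMI was found in 27.3% of naïve (19.8 to 35.9), 16.3% of sham (10.9 to 23.2) and 29.9% of SCI members (21.0 to 40.0), against 7.08%, 6.72% and 7.33% of gate cells without the 4 genes. With members kept as chosen at full depth and each cell thinned to 2000 UMIs, the shares were 18.1%, 9.15% and 19.6% against 4.25%, 4.20% and 4.16%. When the rule itself was applied to thinned cells, the cell cycle list medians were 1.03, 0.43 and 1.57 in naïve, sham and SCI blood. At full depth, cells with 1 of the 4 genes lay between, at 15.7%, 15.6% and 19.1%. Members with GNG4 held such a UMI in 29.1%, 28.6% and 33.9% of cells, whereas sham members with CD200 or FZD3 did so in 10.7% and 13.7%. MKI67, which marks cells outside the resting state, was higher with each added gene in naïve blood, at 78.5 CPM with none, 207 with 1, 368 with 2 and 426 with 3 or 4. The same steps were 59.9, 138, 163 and 218 CPM in sham and 72.7, 204, 434 and 489 CPM in SCI blood. The share of cycling cells did not follow each step, at 13.2% of sham cells with 2 genes and 17.4% of the 23 naïve cells with 3. Median depth also differed, at 3469, 4009, 4209, 4075 and 11511 UMIs in naïve cells with 0 to 4 of the genes. The part of depth in these steps was not tested.

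**Figure D2:**
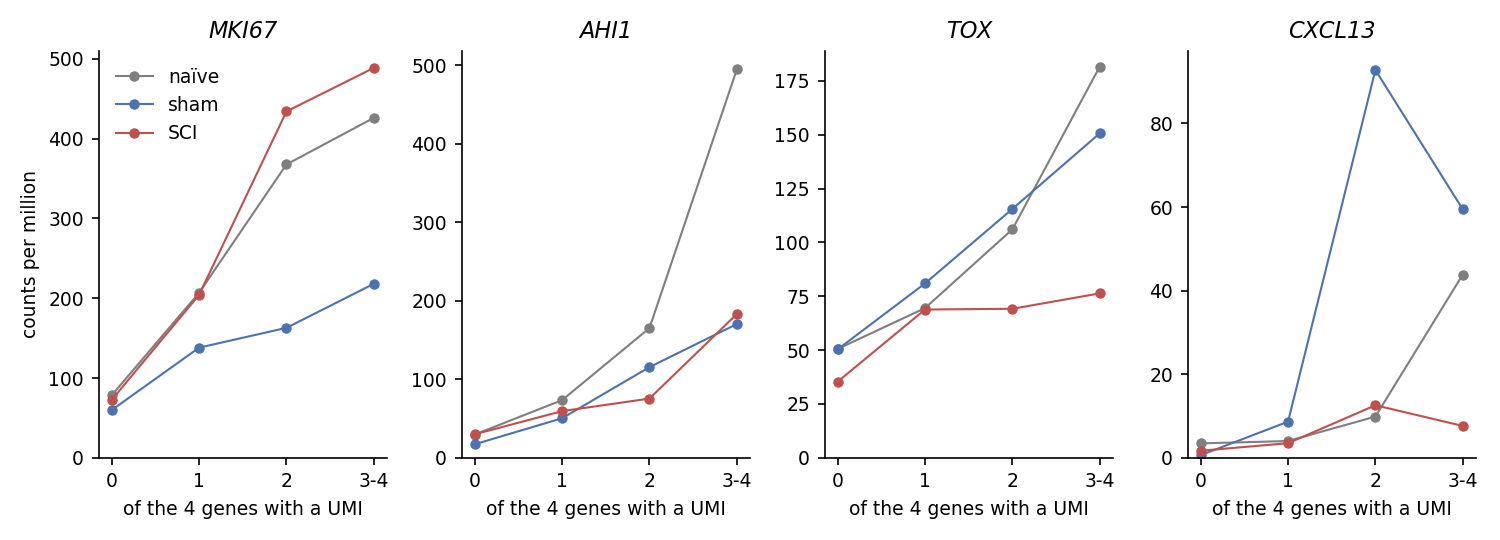
Level in CPM of MKI67, AHI1, TOX and CXCL13 in gate cells with 0, 1, 2 or 3 to 4 of PDCD1, CD200, GNG4 and FZD3, with 1 line per blood library. MKI67, AHI1 and TOX were higher in cells with 3 or 4 of the genes than with none in each library, and sham CXCL13 peaked at 92.8 CPM in cells with 2. Cells with none of the genes had the lowest median depth in each library.

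Most tested genes of follicular helper T cells lay above 0 in members against gate cells with none of the 4 genes, and few passed 1.5-fold. Of 12 tested genes of the list of 21 without the rule's own genes, 10 were above 0 in all 3 libraries. The number at least 1.5-fold higher in all 3 was 2. The list medians were 0.44, 0.62 and 0.50, beside 0.03, 0.02 and 0.01 over all tested genes. The share of all tested genes above 0 in all 3 is not given here. TOX, a chromatin factor of persistently stimulated and follicular helper T cells, stood at 127, 126 and 70.7 CPM in naïve, sham and SCI members against 50.6, 50.4 and 35.4 CPM. TIGIT, an inhibitory receptor for nectin family ligands, stood at 260, 221 and 163 CPM against 142, 122 and 73.8 CPM. The related factor TOX2 gave 29, 41 and 15 UMIs in members, a log2 ratio of 2.27, 1.84 and 1.33. MAF, which drives IL-21, was at 168, 198 and 118 CPM against 104, 111 and 85.2 CPM. ICOS, a costimulatory receptor, differed less, at log2 ratios of 0.28, 0.53 and 0.51. P2RY8, a receptor that confines cells to germinal centres, was lower in naïve and SCI members, at −1.03 and −0.30, and higher in sham members, at 0.25.

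CXCR5 and BCL6 were near the limit of detection. CXCR5 had a UMI in 1, 5 and 0 members of naïve, sham and SCI blood, or 6 of 378, against 84 of 6935 gate cells without the 4 genes (1.59% against 1.21%). The exact interval of 0 among 97 SCI members reaches 3.73%. BCL6 had a UMI in 5, 2 and 1 members, or 8 of 378 (2.12%, 0.918 to 4.13), against 65 of 6935 cells without the 4 genes (0.937%, 0.724 to 1.19). IL4 had none in any member. CXCL13 and IL21, chosen like CXCR5 and BCL6 after their values were seen, were rare, and a larger share of members than of other gate cells held them. CXCL13 gave 11, 68 and 7 UMIs in 4, 10 and 4 members of naïve, sham and SCI blood. It was found in 3.13% of naïve (0.858 to 7.81), 6.54% of sham (3.18 to 11.7) and 4.12% of SCI members (1.13 to 10.2), against 0.346%, 0.256% and 0.251% of gate cells without the 4 genes and 1.12%, 2.52% and 0.798% of those with 1. Cells without the 4 genes, being far more numerous, held 26, 5 and 14 CXCL13 UMIs. In sham blood 1 member held 29 of the 68 UMIs. IL21 had a UMI in 2, 6 and 2 members, or 2.65% of 378, against 4 of 6935 cells without the 4 genes. FOXP3-positive T cells held no CXCL13 UMI in any blood library.

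**Figure D3:**
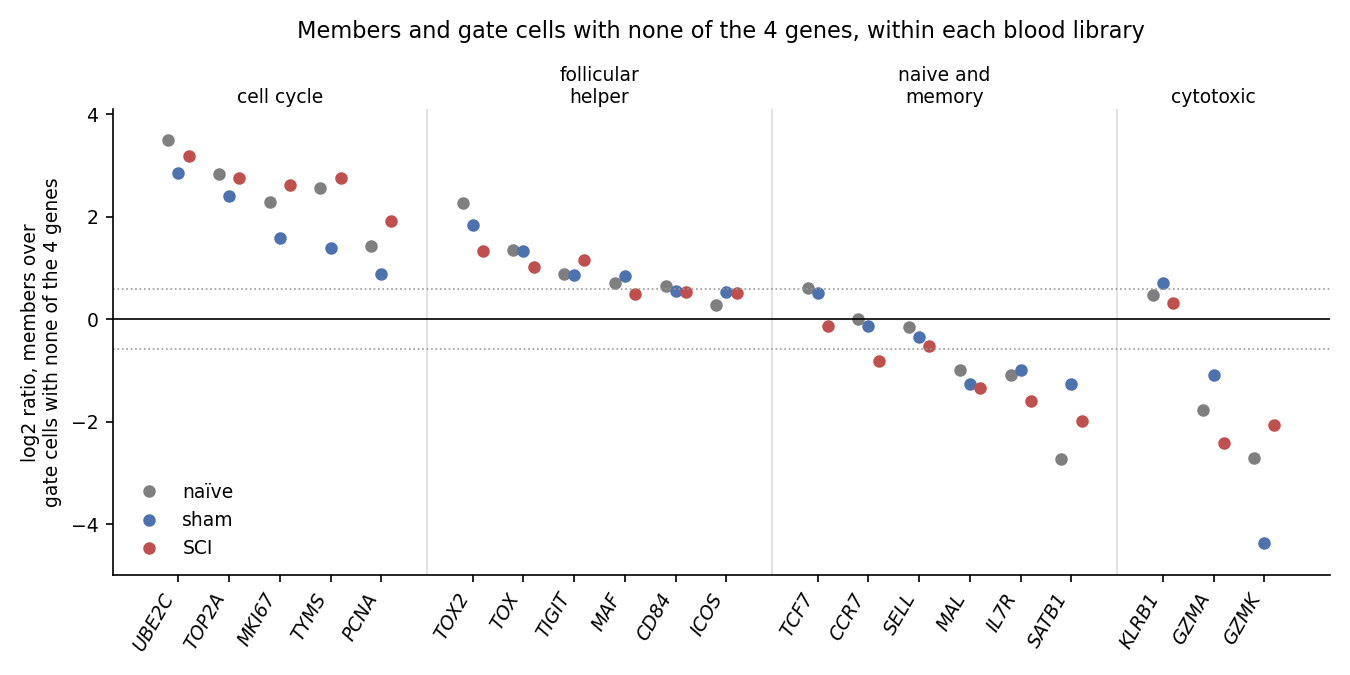
Log2 ratio of members over gate cells with none of the 4 genes for genes of 4 lists, with 1 point per blood library and dotted lines at 1.5-fold. The cell cycle genes drawn and TOX, TOX2 and TIGIT lie above the upper line in each library, and MAL, IL7R, SATB1, GZMA and GZMK below the lower line in each.

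Genes of resting and of cytotoxic T cells were lower in members. Of 14 tested genes of the naive and central memory list, 5 were at least 1.5-fold lower in all 3 libraries and none was higher in all 3. IL7R, the receptor for the survival cytokine IL-7, stood at 260, 339 and 283 CPM in naïve, sham and SCI members against 554, 676 and 853 CPM. MAL, a membrane raft protein of resting T cells, stood at 145, 103 and 107 CPM against 288, 249 and 273 CPM. SATB1, a chromatin organiser, was lower by 2.73, 1.26 and 1.98 on the log2 scale. In all 3 libraries, 11 of the 14 were below 0. TCF7 and CCR7 were among the 3 genes above 0 in naïve blood. TCF7 had log2 ratios of 0.61 and 0.50 in naïve and sham but −0.13 in SCI members, and CCR7 had 0.01, −0.14 and −0.82. Of 11 tested cytotoxic genes, 5 were at least 1.5-fold lower in all 3 libraries. The granzyme GZMK had 31, 6 and 38 UMIs in members, at log2 ratios of −2.72, −4.38 and −2.06, and GZMA had −1.78, −1.08 and −2.42. KLRB1, a lectin receptor of memory T cells, was higher in members, at 0.46, 0.71 and 0.32.

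The 15 lowest genes were of several kinds. CLC and MS4A2, which are basophil genes, had no UMI in any blood member, whereas basophil and mast cell markers summed to 607, 1690 and 929 UMIs in gate cells without the 4 genes. CCR10, a skin homing receptor, had 3, 3 and 1 UMIs in members, at 5.31, 3.64 and 1.64 CPM against 78.0, 39.0 and 37.7 CPM. PTGER2, a prostaglandin E2 receptor, had 1, 1 and 5 UMIs, against 42.7, 47.3 and 97.4 CPM in the cells without the 4 genes. IL2RA, the alpha chain of the IL-2 receptor, had 4, 7 and 5 UMIs, at 7.08, 8.50 and 8.22 CPM against 57.5, 54.0 and 31.6 CPM. After cells with a CD79A, CD79B, LYZ, FCER1G or S100A8 UMI were left out, a step added after the data had been seen, the log2 ratios were −3.46, −3.51 and −4.68 for CCR10 and −2.41, −2.08 and −2.40 for IL2RA. With no CLC or MS4A2 UMI in members, no ratio is given for these genes.

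When cells with an MKI67 or TOP2A UMI were left out, also after the data had been seen, 93, 128 and 68 members remained in naïve, sham and SCI blood and other genes came to the top. AHI1, which encodes a ciliary transition zone protein, headed the list with 102, 89 and 36 UMIs, at log2 ratios of 3.52, 3.32 and 2.25 over non-cycling gate cells without the 4 genes. LIMS1, an adaptor of integrin adhesions, stood at 864, 863 and 775 CPM against 306, 342 and 268 CPM. FABP5, a fatty acid binding protein, stood at 93.8, 131 and 92.7 CPM against 38.4, 26.3 and 21.3 CPM. ST8SIA1, the ganglioside GD3 synthase, had log2 ratios of 1.60, 1.47 and 1.71, and IGFBP4, an insulin-like growth factor binding protein, 2.31, 2.15 and 1.13. The follicular helper list kept medians of 0.55, 0.73 and 0.68 in these cells. The cell cycle list was at 0.66, −0.08 and −0.21.

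The members of the 3 blood conditions were then compared with each other. A gene was called when it differed by at least 1.5-fold and had at least 100 UMIs over both libraries. Between sham and naïve members, 61 of 2679 genes (2.28%) were higher in sham and 83 (3.10%) lower. Between SCI and naïve members, 91 of 2287 genes (3.98%) were higher in SCI and 76 (3.32%) lower. Between SCI and sham members, 208 of 2766 genes (7.52%) were higher in SCI and 142 (5.13%) lower. Without cells with an MKI67 or TOP2A UMI, 26 of 1580 genes were higher and 44 lower in SCI than in sham members, so that the larger side turned. Of the calls between SCI and naïve members, 54.5% were higher in SCI, against 67.0% with median-of-ratios size factors. On the scale of UMIs per cell, with no division by library total, all tested genes shifted by medians of 0.27, 0.51 and 0.23 in these comparisons, and 92.7%, 99.0% and 90.3% of the calls were higher in the first-named library, beside 42.4%, 54.5% and 59.4% on the CPM scale. These comparisons share libraries, and each value is given for its own comparison only.

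Interferon-stimulated genes were lower in SCI members than in either control. Type I interferon induces this group, whose products restrict viral replication. Of 24 tested genes of the list, 24 were below 0 in SCI against sham members and 14 passed 1.5-fold, at a median of −0.63, beside 0.01 over all genes tested. Against naïve members, 19 of 19 were below 0 and 6 passed 1.5-fold, at a median of −0.45. ISG15, a ubiquitin-like protein, had 699 UMIs in naïve, 1328 in sham and 329 in SCI members, or 1237 CPM (1147 to 1332), 1613 CPM (1527 to 1702) and 541 CPM (484 to 603). It was detected in 121 of 128 naïve, 148 of 153 sham and 85 of 97 SCI members. IFI44L had 147, 334 and 52 UMIs, a log2 ratio of −1.60 (−2.09 to −1.14) for SCI against naïve and −2.23 (−2.70 to −1.82) for SCI against sham members. MX1, which blocks viral ribonucleoproteins, had 310, 545 and 150 UMIs, at log2 ratios of −1.15 and −1.42. IFI6 and OAS1 were also lowest in SCI members, at 128 and 127 CPM against 246 and 209 CPM in naïve members.

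**Figure D4:**
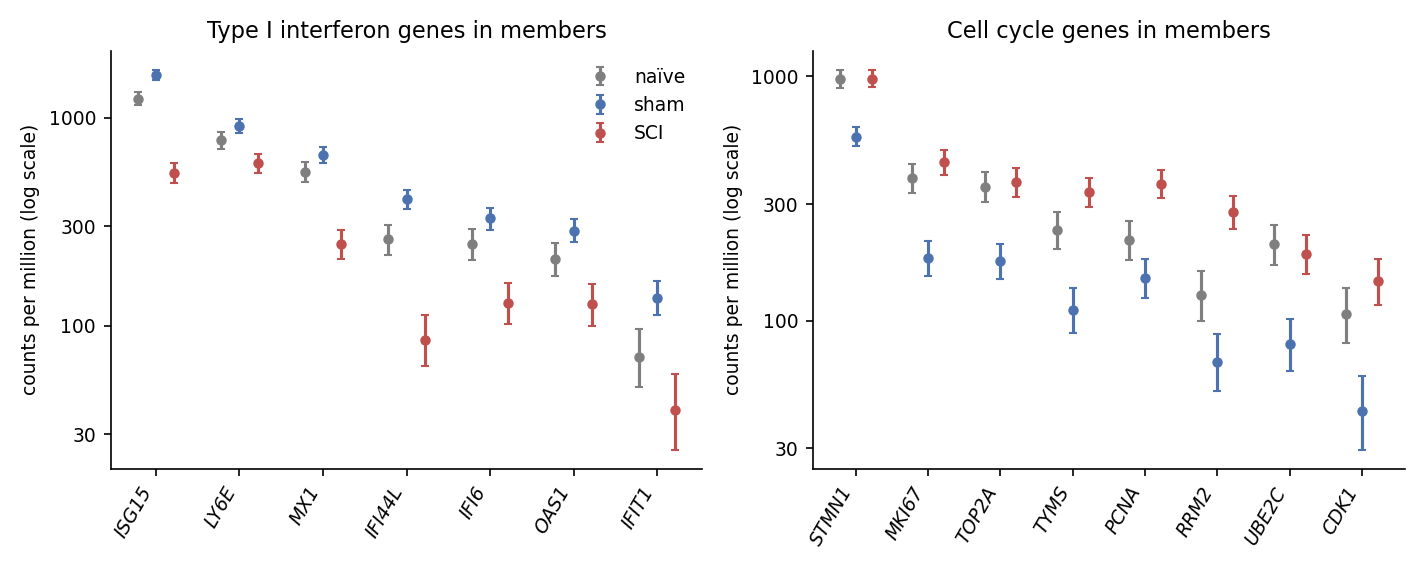
Level in CPM (log scale) of interferon-stimulated genes (left) and cell cycle genes (right) in members of each blood library, with 95% intervals of counting error. All of the interferon genes drawn are lowest in SCI members, ISG15 at 541 CPM, and all of the cell cycle genes drawn are lowest in sham members, MKI67 at 180 CPM.

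The interferon difference was not particular to the members. In gate cells with none of the 4 genes, the same 24 genes had a median of −0.60 for SCI against sham blood, with 13 past 1.5-fold, and the 19 genes tested against naïve blood had a median of −0.36, with 3 past 1.5-fold. ISG15 was lower in SCI by 0.99 and 0.85 on the log2 scale in those cells, against 1.57 and 1.19 in members. Without cycling cells, the members' medians were −0.39 against sham (22 genes) and −0.28 against naïve (16 genes). On the scale of UMIs per cell, the interferon list stood at 0.059 for SCI against naïve members, or −0.45 relative to the shift of all genes. Members held less of the interferon list than the cells without the 4 genes within each library, with 24 of 36 genes below 0 in all 3. The list medians were −0.29, −0.20 and −0.48, beside 0.03, 0.02 and 0.01 over all tested genes. Without cycling cells the list medians were −0.15, −0.09 and 0.07. The share of all tested genes below 0 in all 3 is not given here.

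Cell cycle genes were lowest in sham members. Of 13 tested genes, 10 were at least 1.5-fold lower in sham than in naïve members, at a median of −0.90. MKI67 had 217, 148 and 271 UMIs in naïve, sham and SCI members, in 28, 21 and 26 cells, or 384, 180 and 446 CPM. All 15 tested genes passed 1.5-fold in SCI over sham members, at a median of 1.12. RRM2, a ribonucleotide reductase subunit, stood at 127, 68.0 and 278 CPM, a log2 ratio of 2.02 (1.59 to 2.49) for SCI against sham. Its UMIs lay in 17, 10 and 20 members of naïve, sham and SCI blood, with 14 of the 56 sham UMIs in 1 cell. Against naïve members, 5 of 15 genes were at least 1.5-fold higher in SCI, at a median of 0.23. The highest were genes of DNA replication, with MCM5 at 1.38 (0.84 to 1.99), RRM2 at 1.12 and PCNA at 0.76. The replication-dependent histone HIST1H4C had 538, 503 and 1253 UMIs, a log2 ratio of 1.11 (0.97 to 1.26) over naïve and 1.75 (1.60 to 1.91) over sham members. The thymidine kinase TK1 and the helicase subunit GINS2 were also among the highest, at 2.52 and 2.04 for SCI against sham. In gate cells without the 4 genes, the cell cycle median was −0.18 between sham and naïve blood. It was 0.11 between SCI and naïve blood and 0.28 between SCI and sham blood. The share of members with an MKI67 or TOP2A UMI, 27.3%, 16.3% and 29.9%, moved with these values. The cell cycle list stood at 4525, 3789 and 5904 CPM in naïve, sham and SCI members with GNG4, and at 5163, 1790 and 4502 CPM with FZD3. It stood at 4819, 1678 and 4335 CPM with CD200 and 4063, 2512 and 5687 CPM with PDCD1. GNG4 was found in 67.2%, 41.2% and 63.9% of members, and the part of this mix was not tested.

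Several T cell regulators were lower in SCI members. Of 11 tested follicular helper genes, 5 were at least 1.5-fold lower in SCI than in sham members, at a median of −0.44, and 2 of 7 in SCI than in naïve members, at −0.49 (0.018 on the scale of UMIs per cell). TOX had 72, 104 and 43 UMIs in naïve, sham and SCI members, a log2 ratio of −0.84 (−1.43 to −0.28) against naïve and −0.83 (−1.38 to −0.31) against sham. SLAMF6, an adhesion receptor between T and B cells, had 43, 116 and 38 UMIs. TIGIT stood at 163 CPM in SCI against 260 CPM in naïve members. Of 8 tested lineage transcription factors, 5 were at least 1.5-fold lower in SCI than in sham members, at a median of −0.66. ID3, an inhibitor of E proteins, had 215, 378 and 100 UMIs and log2 ratios of −1.21 (−1.57 to −0.86) and −1.48 (−1.81 to −1.16). CCR7, which guides T cells into lymph nodes, had 182, 258 and 111 UMIs, at −0.82 and −0.78. Of 21 tested T cell receptor signalling genes, 18 were below 0 in SCI against sham members and 1, the transcription factor NFATC2, passed 1.5-fold at −0.77.

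Some of these differences were larger in members than in the cells without the 4 genes, which is given as values with no test. CCR7 differed by 0.01 for SCI against naïve in those cells (−0.07 to 0.09), beside −0.82 (−1.17 to −0.47) in members. AHI1 had 146, 109 and 60 UMIs in members, a log2 ratio of −1.38 (−1.85 to −0.95) for SCI against naïve, and 0.02 (−0.25 to 0.29) in the cells without the 4 genes. TOX differed by −0.51 there and the follicular helper list by a median of −0.36, nearer to the members' values. Without cycling cells, AHI1 was at −1.34 and ID3 at −1.07 for SCI against naïve members, and the follicular helper list was at −0.19 between SCI and sham members.

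**Figure D5:**
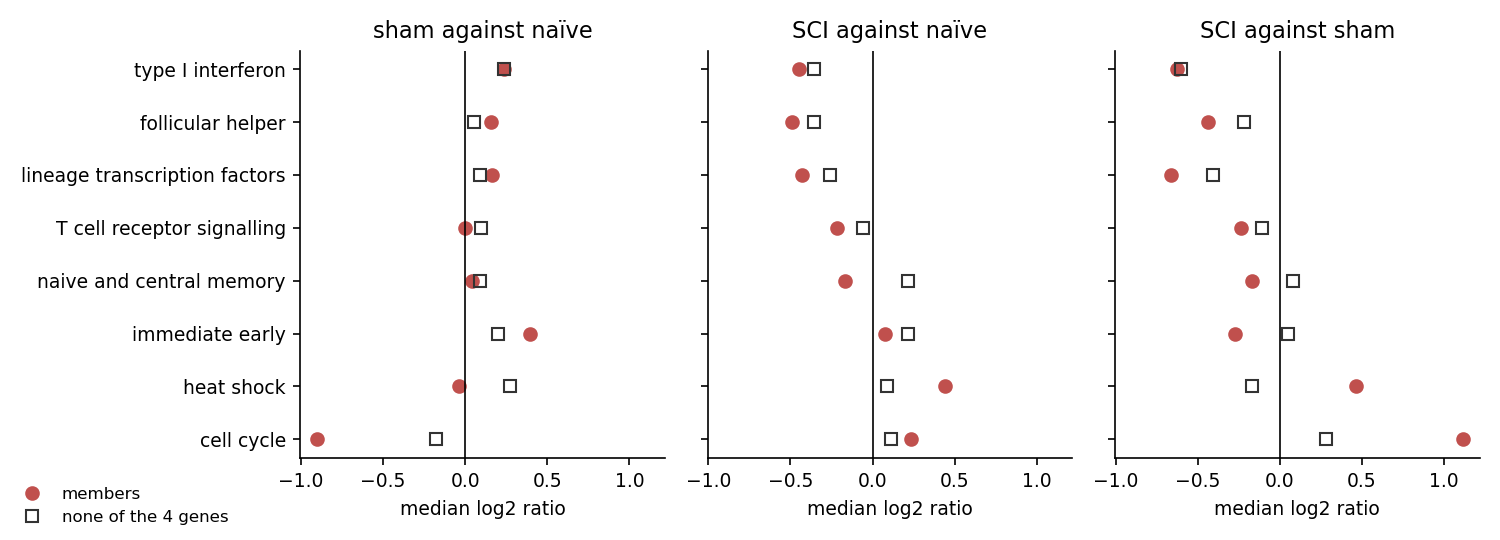
Median log2 ratio of 8 gene lists in each comparison of blood libraries, in members (filled circles) and in gate cells with none of the 4 genes (open squares). The interferon medians nearly coincide, at −0.63 and −0.60 for SCI against sham, whereas the cell cycle medians stand apart, at 1.12 and 0.28.

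A few heat shock genes were higher in SCI members, with many of their UMIs in 1 cell per gene. HSPD1 and HSPE1, the mitochondrial chaperonins, had 221, 287 and 402 UMIs and 178, 299 and 354 UMIs in naïve, sham and SCI members. Of 9 tested heat shock genes, 3 were at least 1.5-fold higher in SCI than in naïve members and 3 in SCI than in sham, at medians of 0.44 and 0.47, when the medians in cells without the 4 genes were 0.09 and −0.17. The SCI member with the most UMIs of a gene held 149 of the 402 for HSPD1, 90 of the 354 for HSPE1 and 233 of the 840 for HSP90AB1. With the mean of per-cell CPM, which weights cells equally, the members' medians were 0.30 and 0.14, and without cycling cells 0.17 and −0.021. Among the highest ratios between SCI and naïve members, IMPDH2, which makes guanine nucleotides, had 30, 33 and 73 UMIs, of which 28 of the SCI UMIs were in 1 cell. ATP5MC3, a subunit of ATP synthase, had 214, 475 and 489 UMIs, and MIF, a secreted cytokine, had 74, 138 and 159, a log2 ratio of 0.99 for SCI against naïve members.

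Sham members stood apart from naïve members in a few activation genes. JUN, a subunit of AP-1, had 63, 232 and 109 UMIs in 38, 87 and 56 members of naïve, sham and SCI blood, a log2 ratio of 1.33 (0.93 to 1.76) for sham against naïve. Most tested immediate early genes, 7 of 8, were above 0, at a median of 0.39, though JUN was the one that passed 1.5-fold. In gate cells without the 4 genes the same list had a median of 0.20, and JUN a ratio of 0.59. TNFRSF4, the costimulatory receptor OX40, had 55, 195 and 81 UMIs, a ratio of 1.27 (0.84 to 1.74) in members and 0.13 in the cells without the 4 genes, although 1 sham member held 44 of the 195. P2RY8 had 26, 94 and 41 UMIs, a ratio of 1.29, and SLAMF6 0.88. The interferon list was slightly higher in sham than in naïve members, at a median of 0.24 with 4 of 26 genes past 1.5-fold, and was at 0.24 in the cells without the 4 genes too.

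The most extreme ratios between libraries came from a handful of cells. S100A8 had 0, 182 and 0 UMIs and S100A9 had 2, 554 and 0 in naïve, sham and SCI members. These myeloid calgranulins were found in 3 and 4 sham members, and 1 member held 343 of the S100A9 UMIs. GNLY, the cytotoxic protein granulysin, had 119, 8 and 35 UMIs in 6, 4 and 3 members, with 77 of the naïve UMIs in 1 cell. CCL5, a chemokine of effector T cells, had 72, 11 and 156 UMIs in 10, 6 and 11 members. Its ratio of 1.00 for SCI against naïve members turned to −0.40 without cycling cells. A cytokine of type 1 helper cells, IFNG, had 4, 13 and 16 UMIs in 3, 6 and 5 members, and IL5, IL9, IL10, IL17A and IL22 had none in any.

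The partners and relatives of the rule's genes ranged from undetected to frequent. CD200R1, the receptor for CD200, had 33, 46 and 29 UMIs in 20.3%, 24.8% and 25.8% of naïve, sham and SCI members. G protein beta and gamma subunits other than GNG4 summed to 712, 1024 and 757 UMIs, with GNG5 in 75.0%, 85.6% and 84.5% of members. Of the PD-1 ligands, CD274 had 1, 0 and 1 UMIs in naïve, sham and SCI members and PDCD1LG2 had none. Of the other frizzled and Wnt receptor genes, FZD2, FZD4, FZD5, FZD7, FZD8, FZD9, FZD10, ROR1 and ROR2 had no UMI in any blood member, and FZD6 had 6, 4 and 7. The list of 14 summed to 26, 35 and 18 UMIs, fewer than the 143, 251 and 104 of FZD3. Gamma delta T cell receptor genes summed to 81, 120 and 155 UMIs in 32, 29 and 36 members. Their summed level in SCI members was 255 CPM, against 142 CPM in SCI gate cells without the 4 genes, and in naïve members it was 143 CPM against 220 CPM. TRGC1 and TRGC2 are near-identical copies, and reads may be split between them.

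SCI cord gave 44 gate cells, of which 4 were members (9.09%, 2.53 to 21.7). With the cells thinned, 1 of 47 remained. The cord members carried PDCD1 in each case, CD200 in 2 and FZD3 in 3, and all had a CD4 UMI. They held 18 ICOS, 15 ENTPD1 and 29 ISG15 UMIs in total. No comparison with blood was made at this number of cells.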

How the data were processed

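Sorted human CD45+ cells were profiled with 10x Genomics 3' libraries. The authors aligned reads to a joint reference of human (GRCh38, 33538 genes) and mouse (mm10) using CellRanger 3.1.0, and the deposited values are its UMI counts per gene and barcode without normalisation. Software was Python 3.11.15, with scipy 1.17.1 for intervals, scanpy 1.11.5 for Scrublet, pandas 2.3.3, numpy 2.4.6 and matplotlib 3.10.9. TMM factors came from edgeR 4.0.16 under R 4.3.3. The members, the rule and the 26 gene lists were chosen with earlier results of these data known. Counts were summed over cells, scaled to CPM without ribosomal and mitochondrial genes, and compared as log2 ratios with 0.5 added counts. Intervals are at 95% and exact (Clopper-Pearson for shares, Poisson for levels, conditional binomial for ratios). With 1 library per condition no test was made, and members were not tested against other gate cells because the rule used the same cells. Cells were thinned by drawing 2000 UMIs without replacement. The barcodes with the highest Scrublet scores, in a number set from the library's barcode count, were marked as doublets and kept in the main values.

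Named were the rule's genes, the 10 highest and 10 lowest ratios between blood libraries, the 15 genes highest and the 15 lowest against cells without the 4 genes in all 3 libraries, and the 3 highest and 3 lowest of a list. Ribosomal, mitochondrial, HLA, T cell receptor variable and sex-linked genes were left out. Other genes were named after their values had been seen, among them CXCL13, IL21, CXCR5, BCL6, IFNG, IGHM, LIMS1, ST8SIA1, FABP5, IGFBP4, CD274 and the cord genes. Alternatives were other scalings, count minimums, a 2-fold threshold, thinning, stricter membership, a CD4 UMI, doublet removal and leaving out cycling cells or cells with B cell or myeloid UMIs. The calculations were checked on simulated data. Human sequences were not used here.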

Additional observations from a re-analysis of the deposited data

How the results depend on the processing

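One library per condition and 97 to 153 members per library limit these values, and differences between animals cannot be told apart from condition. The share of members among gate cells was 1.46%, 1.54% and 0.789% in naïve, sham and SCI blood when thinned to 2000 UMIs, 4.85%, 8.25% and 4.31% when a CD4 UMI was required, and 0.946%, 1.88% and 0.735% when at least 3 of the 4 genes were required. Without cells with an MKI67 or TOP2A UMI it was 3.23% in naïve and 2.63% in SCI blood. SCI blood had the lowest share under each of the settings given for all 3 libraries.

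The number of genes past 1.5-fold in members was 144 between sham and naïve, 167 between SCI and naïve and 350 between SCI and sham libraries. In that order it was 481, 514 and 840 with at least 50 counts, 20, 17 and 78 with at least 300 counts, 23, 21 and 72 at 2-fold, 24, 23 and 40 when thinned, 92, 41 and 107 with at least 3 of the 4 genes, 70, 46 and 70 without cycling cells, and 83, 105 and 159 without cells with a B cell or myeloid UMI. Fewer cells or counts were tested in most of these settings. Without cycling cells, 26 were higher and 44 lower in SCI than in sham members, against 208 and 142 with them. On the scale of UMIs per cell it was 341 for sham and 907 for SCI against naïve. Members against gate cells without the 4 genes gave 304 genes in all 3 libraries, 173 without cycling cells, 195 without cells with a B cell or myeloid UMI and 120 when thinned.

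Among medians and single genes, 678 alternative values moved by less than the counting error, 145 moved by more and 15 turned direction. Without cycling cells, the medians between sham and naïve members were −0.069 for follicular helper genes, −0.051 for lineage transcription factors and −0.042 for chemokine receptors, CCL5 was at −0.40 between SCI and naïve members, and naive and central memory genes were at 0.023 and heat shock genes at −0.021 between SCI and sham members. On the scale of UMIs per cell, which shifted all genes, SCI against naïve members gave 0.018 for follicular helper genes, 0.29 for T cell receptor signalling, 0.34 for naive and central memory, 0.076 for lineage transcription factors, 0.28 for chemokine receptors and 0.059 for interferon genes. SCI against sham members gave 0.051 for naive and central memory genes and 0.059 for chemokine receptors. With the mean of per-cell CPM, chemokine receptors were at 0.024 between SCI and naïve members. The cause of these turns was not tested. No paired analysis was possible because each condition has 1 library.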
